A study of Mus musculus with 6 samples.

Results

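The genes described here are 8 genes of proximal tubule membrane transport: Slc5a2, Slc5a12, Slc34a1, Slc15a2, Slc3a1, Slc22a6, Slc22a8 and Pdzk1. They are 8 of the 25157 genes that carry a normalized count in the deposited table, and they were matched by gene symbol. The set was chosen from its measured values in the contrast between diets, so that contrast is described for these genes and not tested. Strictly, 6 of the 8 are carriers on their own. Slc3a1 is the heavy chain of a carrier pair, and Pdzk1 is a scaffold protein that binds carriers under the membrane.

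RNA was sequenced from cells sorted for GFP out of mouse fetal kidneys at E18.5 and labelled as nephron progenitor cells, the Six2-positive cells that form the nephron epithelium. The groups were 3 libraries from food-restricted pregnancies and 3 from pregnancies on the control diet. All embryos came from CD-1 females mated with Six2 Cre tg/+ males, so both groups share the transgenic background, and the labels give CD-1/ Six2 Cre tg/+ for every library. By its name the transgene puts Cre under Six2, and what drove GFP is not stated in the labels. The sample labels put the restricted intake at 30% of the daily calories and the series text at 70%, and which of the 2 was fed could not be settled. The design text calls the libraries biological replicates, but no label says which litter or how many embryos went into each, so every p-value below measures only the spread between these libraries, which may be technical.

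The proximal tubule takes back most of the glucose, phosphate, amino acids, peptides and small organic acids that the glomerulus filters. Carriers in its brush border bring solutes in from the lumen, mostly driven by the sodium or proton gradient, and carriers on the blood side pass them on or take up organic anions for secretion. A nephron progenitor has no brush border, and these carriers are known as products of cells that have differentiated into tubule. The transcription factor HNF4 is a known regulator of proximal tubule genes.

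The start regions of these genes are shown because a short HNF4 motif is a feature that the choice of genes did not use. Promoters of 300 bases, 250 before the annotated start and 50 from it, were taken from RefSeq (GRCm38.p6), in which 6 of the 8 genes matched, all but Slc5a2 and Slc5a12. Pdzk1 has 2 starts there, which gives 7 promoters, and its first is shown. Capitals mark the HNF4 core CAAAGT, with the rest of its extended form CAAAGTCCA where that is present. Both strands were searched, and a match on the opposite strand reads ACTTTG here. The first 3 sequences hold a match, and Slc15a2, the gene that differed most, holds none. The windows are chr13:55399398-55399697 (+) for Slc34a1, chr17:85028097-85028396 (+) for Slc3a1, chr3:96829815-96830114 (+) for Pdzk1 and chr16:36784913-36785212 (-) for Slc15a2.
Slc34a1: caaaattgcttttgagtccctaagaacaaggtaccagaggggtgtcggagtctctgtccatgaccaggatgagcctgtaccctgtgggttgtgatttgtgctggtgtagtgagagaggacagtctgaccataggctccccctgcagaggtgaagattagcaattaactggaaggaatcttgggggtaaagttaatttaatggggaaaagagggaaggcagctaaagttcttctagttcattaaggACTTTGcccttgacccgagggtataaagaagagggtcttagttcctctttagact
Slc3a1: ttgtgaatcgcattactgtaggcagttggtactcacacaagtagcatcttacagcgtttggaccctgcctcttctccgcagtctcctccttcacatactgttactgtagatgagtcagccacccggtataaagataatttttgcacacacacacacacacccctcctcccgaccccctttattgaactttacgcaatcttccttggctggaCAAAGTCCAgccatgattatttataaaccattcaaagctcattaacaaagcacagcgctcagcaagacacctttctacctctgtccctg
Pdzk1: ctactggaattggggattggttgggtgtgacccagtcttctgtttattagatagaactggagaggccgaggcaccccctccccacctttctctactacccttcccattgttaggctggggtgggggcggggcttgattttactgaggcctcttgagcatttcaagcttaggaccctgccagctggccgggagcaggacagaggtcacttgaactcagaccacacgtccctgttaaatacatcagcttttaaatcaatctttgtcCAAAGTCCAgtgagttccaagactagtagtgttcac
Slc15a2: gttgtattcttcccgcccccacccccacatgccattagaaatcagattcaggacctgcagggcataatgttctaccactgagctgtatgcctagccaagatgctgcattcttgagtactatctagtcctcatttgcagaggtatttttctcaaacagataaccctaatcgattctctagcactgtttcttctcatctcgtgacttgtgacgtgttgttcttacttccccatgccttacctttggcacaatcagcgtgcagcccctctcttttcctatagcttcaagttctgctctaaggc

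The HNF4 core occurred in 3 of the 7 promoters, against 14.4% of all 32851 promoters of that length in the RefSeq table. It began 5 bases before the start of Slc34a1, on the opposite strand, and lay in Slc3a1 and Pdzk1 as part of the extended form. That form lay in 2 of the 7, 39 bases before the start of Slc3a1 and 14 bases after the first start of Pdzk1, against 0.475% of all promoters. The promoters of Slc15a2, Slc22a6 and Slc22a8 and the second Pdzk1 promoter held none of these letters. For Slc22a8 the RefSeq start lies 1928 bases from the start that the deposited table gives, and the Pdzk1 starts lie 781 and 2887 bases from it. A match is a description of letters, not of binding.

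**Figure D1:**
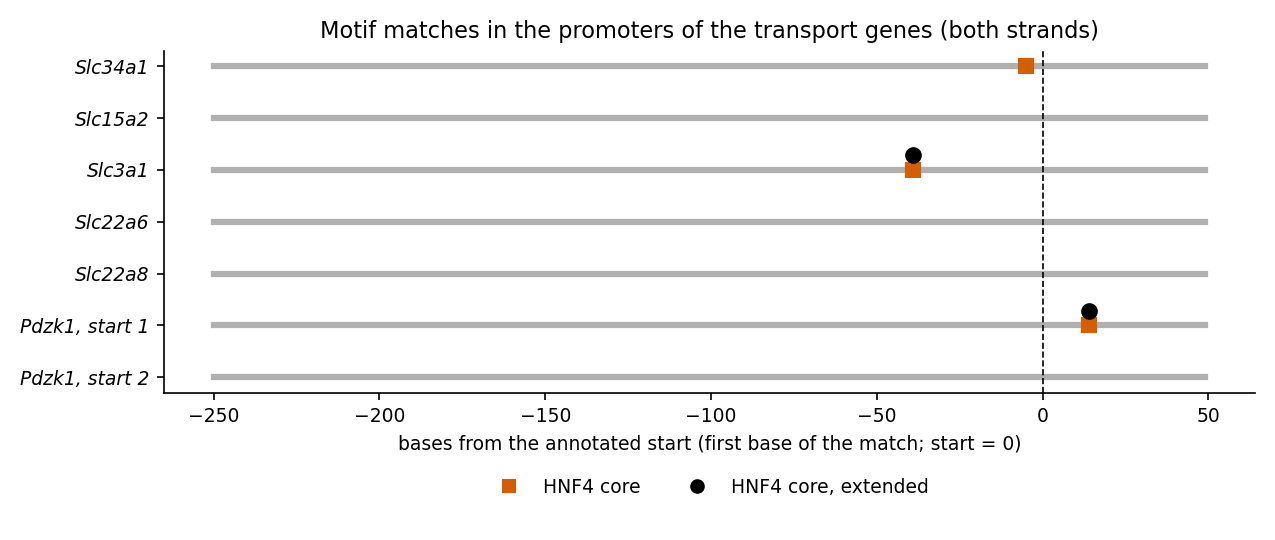
Motif matches in the 7 RefSeq promoters of 6 of the genes. The horizontal axis is the distance in bases from the annotated start to the first base of the match, grey bars are the 300-base windows, squares are HNF4 cores and circles extended HNF4 matches. Matches lie between 39 bases before and 14 bases after the start, and the Slc15a2 window has none.

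Library depth and the level of these genes set how finely they could be measured. Total counts were 6515127, 14188081 and 16763479 in food-restricted replicates 1 to 3, and lay between 10686582 and 12338593 in the controls. The 8 genes together took 433, 901 and 1203 reads in the food-restricted libraries, against 1569, 1346 and 1376 reads in the control libraries. The normalized count is the read count divided by the authors' size factor of its library, and 1 read in the shallow food-restricted replicate 1 was worth 1.76 normalized counts. Whether reads were counted by strand could not be read from the labels. Parts of Slc5a2, Slc34a1, Slc3a1 and Pdzk1 share exon bases with genes on the opposite strand, so their reads cannot be fully told apart from those of their neighbours.

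Across the 8 genes, 7 were lower in the food-restricted cells, with every food-restricted library below every control library, and Slc22a8 overlapped between diets. Their median log2 fold change, food-restricted over control, was -1.02, against -0.003 over all 25157 genes tested. In limma's test of the normalized counts, with Benjamini-Hochberg adjustment over all genes and a threshold of 0.05, 630 genes (2.50%) were called lower and 563 (2.24%) were called higher. Food-restricted values lay below control values without overlap for 10.2% of all genes and above them for 9.48%. Of the 8 genes, 7 were among those called lower, a count that describes genes chosen on this contrast. The calls over all genes leaned on single libraries: genes called lower numbered 324 without food-restricted replicate 3 and 397, 401 and 415 without control replicates 1, 2 and 3, and genes called higher numbered 292 and 240 without food-restricted replicates 2 and 3 and 351, 365 and 350 without control replicates 1, 2 and 3. In bulk libraries, fewer cells of a type and less RNA per cell cannot be told apart.

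**Figure D2:**
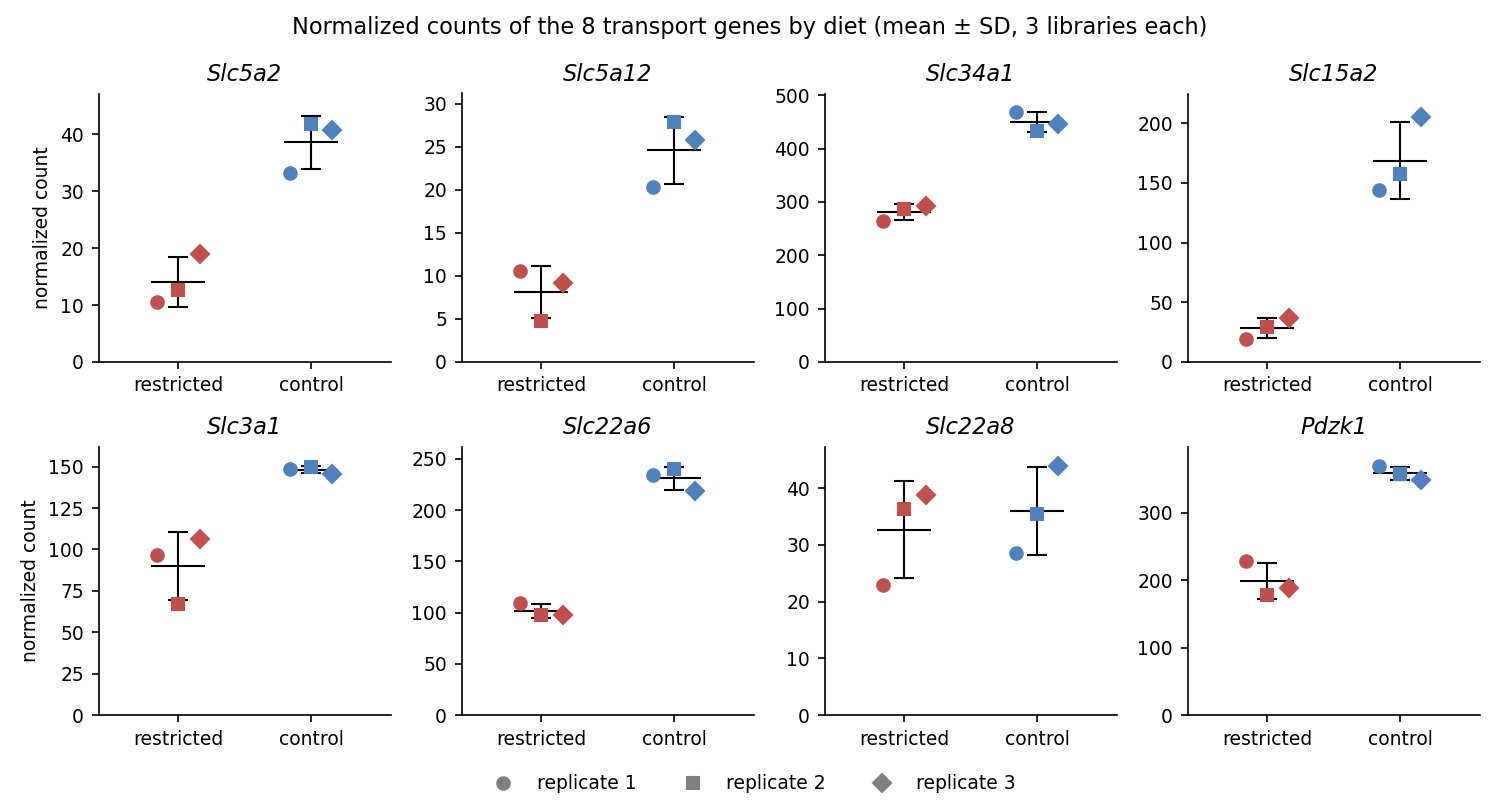
Normalized counts of the 8 genes, with 1 panel a gene and 1 symbol a replicate. Horizontal lines are means and error bars the SD over 3 libraries, food-restricted on the left and control on the right. In 7 panels the 3 food-restricted points lie below all control points, from Slc15a2 at 16.9% of its control mean to Slc34a1 at 62.5%, and in the Slc22a8 panel the diets overlap.

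Among the sodium-coupled carriers of sugars and small acids, both Slc5a genes were weakly expressed and lower in the food-restricted cells. Slc5a2 (SGLT2; chr7:128265657-128272430, + strand, GRCm38) recovers most filtered glucose in the early proximal tubule. It had 10.6, 12.6 and 19.0 normalized counts in the food-restricted libraries and 33.2, 41.8 and 40.7 in the control libraries. The diets did not overlap: the highest food-restricted library held 19.0 and the lowest control library 33.2. The means were 14.1 ± 4.40 and 38.6 ± 4.68 (SD, n = 3 each), and the log2 fold change was -1.42 ± 0.35 (SE). These values rest on 6, 16 and 29 reads in the food-restricted libraries and 36, 39 and 38 reads in the control libraries. BC017158, on the opposite strand, covers 597 of its exon bases (20.6%), and its own log2 fold change was 0.08, with overlapping diets.

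Slc5a12 (chr2:110597298-110647779, + strand) is the low-affinity sodium-coupled carrier of lactate and other monocarboxylates. It had 10.6, 4.74 and 9.18 normalized counts in the food-restricted libraries and 20.3, 27.8 and 25.7 in the control libraries, from 6, 6 and 14 reads and from 22, 26 and 24 reads. The food-restricted libraries were again all below the controls, and food-restricted replicate 2 was the lowest. The mean was 33.2% of the control mean and the log2 fold change -1.53 ± 0.43 (SE), the widest error of the 8 genes. In the authors' deposited table its log2 fold change is -1.64, and it was 1 of the 2 genes of the 8, with Slc22a8, not called there. The spread between food-restricted libraries was 31.3% of the mean for Slc5a2 and 37.3% for Slc5a12, against 12.1% and 15.8% between control libraries.

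Slc34a1 (NaPi-IIa; chr13:55399648-55414695, + strand) carries filtered phosphate with sodium across the brush border and had the highest normalized count of the 8 genes. It had 264, 286 and 292 normalized counts in the food-restricted libraries and 469, 433 and 447 in the control libraries. Values within each diet were close together, with a spread of 5.30% of the mean in food-restricted and 4.12% in control libraries, and the diets lay far apart. The log2 fold change was -0.68 ± 0.10 (SE), the second smallest in size after Slc22a8. The gene with the highest normalized count was thus among those that differed least. No read was on record for Pfn3, which shares 545 of its exon bases on the opposite strand, whether as a count of 0 or as a missing count. Of the other phosphate carriers, Slc34a2 had between 0.79 and 7.87 normalized counts in food-restricted and between 1.07 and 8.30 in control libraries, Slc34a3 carried no normalized count, and Slc20a2, a carrier found in many tissues, had 576, 609 and 554 against 598, 581 and 512.5 with a log2 fold change of 0.04 (limma adjusted p = 0.882).

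Slc15a2 (PEPT2; chr16:36750178-36784962, - strand) takes up di- and tripeptides with protons in the late proximal tubule, and it differed most of the 8 genes. It had 19.4, 29.2 and 36.7 normalized counts in the food-restricted libraries and 144, 157 and 205 in the control libraries. Each food-restricted library lay far below every control library, at 11.5%, 17.3% and 21.8% of the control mean. The means were 28.4 ± 8.71 and 169 ± 32.0 (SD, n = 3 each), a control mean 5.93 times the food-restricted one, and the log2 fold change was -2.56 ± 0.22 (SE). The reads behind it were 11, 37 and 56 in the food-restricted libraries and 156, 147 and 191 in the control libraries. Of its relatives, Slc15a4, a lysosomal carrier, had a log2 fold change of -0.11 ± 0.12 (SE), and Slc15a1 (PEPT1) had at most 2.62 normalized counts in food-restricted and 4.61 in control libraries. A share of 0.534% of its 50-base stretches of exon sequence occurs in another gene on the same strand.

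Slc3a1 (rBAT; chr17:85028347-85064243, + strand) is the heavy chain that brings the light chain Slc7a9 to the brush border, where the pair takes up cystine and dibasic amino acids. It had 96.8, 67.2 and 106 normalized counts in the food-restricted libraries and 148.5, 149.9 and 145.8 in the control libraries. The controls differed by little, with a spread of 1.40% of the mean, while the food-restricted libraries spread by 22.6%, with replicate 2 the lowest. The log2 fold change was -0.74 ± 0.16 (SE). Prepl, which covers 601 of its exon bases (26.5%) on the opposite strand, had a log2 fold change of -0.08 with overlapping diets. Slc3a2, the heavy chain of the carriers on the blood side, had 474, 538 and 534 against 502.5, 519 and 495 normalized counts, with a log2 fold change of 0.02 (limma adjusted p = 0.938).

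The organic anion carriers Slc22a6 (OAT1; chr19:8617996-8628299) and Slc22a8 (OAT3; chr19:8591254-8611834) take up drugs and metabolic waste from the blood for secretion, and their measured differences were far apart although the genes are neighbours. They lie 6161 bases from each other on the + strand of chromosome 19, with no other annotated gene starting between their starts. Slc22a6 had 109, 97.2 and 97.7 normalized counts in the food-restricted libraries and 234, 239.9 and 219 in the control libraries. The diets were clearly separated, the mean was 43.9% of the control mean, and the log2 fold change was -1.18 ± 0.14 (SE). Slc22a8 had 22.9, 36.4 and 38.7 normalized counts in the food-restricted libraries and 28.6, 35.3 and 44.0 in the control libraries. Its diets overlapped, and its mean was 90.8% of the control mean with a log2 fold change of -0.15 ± 0.29 (SE), whose 95% interval runs from -0.74 to 0.44. Its estimate was 0.08 without food-restricted replicate 1, the library with its lowest value, and 0.002 without control replicate 3. It was measured from 13, 46 and 59 reads in the food-restricted libraries and 31, 33 and 41 in the control libraries.

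Pdzk1 (chr3:96829284-96870926, + strand) holds brush border carriers, among them Slc34a1, in place through its PDZ domains. It had 229, 179 and 189 normalized counts in the food-restricted libraries and 369, 357 and 348.5 in the control libraries. Every food-restricted library was below every control library, and the mean was 55.5% of the control mean. The log2 fold change was -0.85 ± 0.11 (SE). Gpr89, on the opposite strand, covers 1333 of its exon bases (37.5%), and its own log2 fold change was 0.05 with overlapping diets. The authors' deposited table gives log2 fold changes of -1.40 for Slc5a2, -0.67 for Slc34a1, -2.49 for Slc15a2, -0.72 for Slc3a1, -1.20 for Slc22a6, -0.09 for Slc22a8 and -0.87 for Pdzk1, within 0.11 of those given here.

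Per kilobase of exon, which allows levels to be compared between genes, the order of the genes changed between diets. In the food-restricted libraries Slc34a1 stood at 60.1 ± 3.18 and Pdzk1 at 55.9 ± 7.47 normalized counts per kilobase (SD, n = 3 each), with overlapping libraries. They were followed by Slc3a1 at 39.7, Slc22a6 at 25.5, Slc22a8 at 8.35, Slc5a2 at 4.86, Slc15a2 at 3.86 and Slc5a12 at 2.01 per kilobase. Slc5a2 overlapped there with both Slc22a8 and Slc15a2, so that part of the order is not settled. In the control libraries Pdzk1 stood at 100.7 ± 2.88 and Slc34a1 at 96.2 ± 3.96 per kilobase, again with overlap. Slc3a1 at 65.2 and Slc22a6 at 58.0 came next, then Slc15a2 at 22.9, Slc5a2 at 13.3, Slc22a8 at 9.20 and Slc5a12 at 6.06 per kilobase, and no 2 neighbours among these 6 overlapped. Slc15a2 thus stood below Slc22a8 in the food-restricted libraries and above it in the control libraries, without overlap in either diet. All 8 were far below Six2, the factor that marks nephron progenitors, at 1883 per kilobase in food-restricted and 1963 in control libraries. Lrp2, the megalin receptor of the proximal tubule, stood at 135 and 242 per kilobase.

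**Figure D3:**
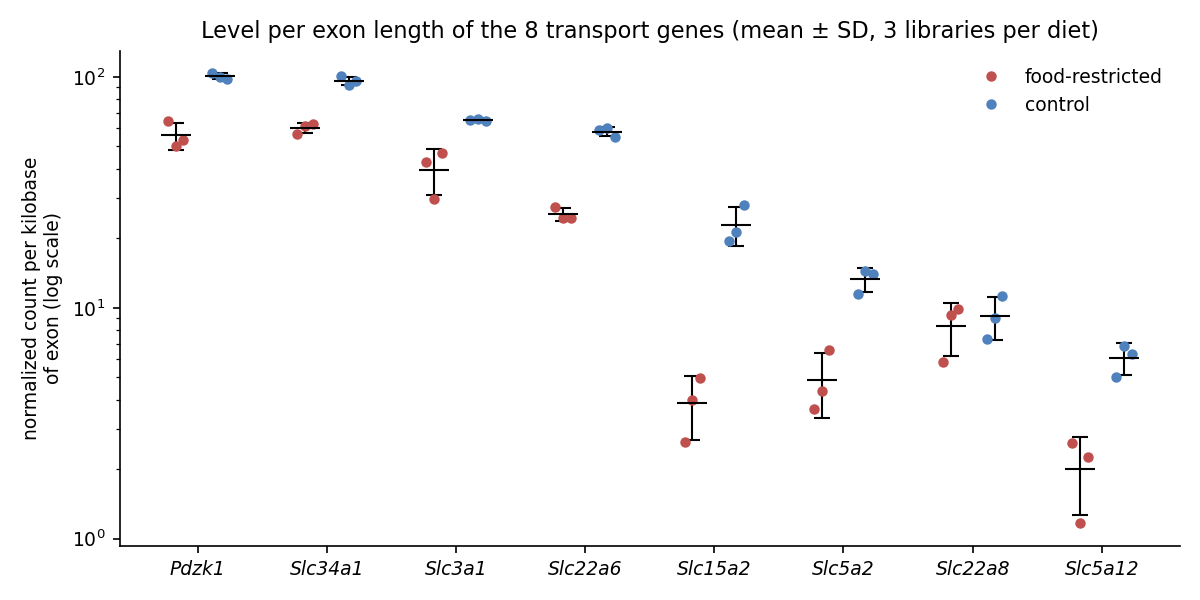
Level of the 8 genes as normalized counts per kilobase of exon on a log axis, ordered by their control mean. Points are libraries, food-restricted left of control, and lines with bars are the mean ± SD of 3 libraries. Slc15a2 stands near the bottom in the food-restricted libraries at 3.86 and between Slc22a6 and Slc5a2 in the control libraries at 22.9.

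The libraries within a diet did not order the genes alike. As a share of each gene's control mean, the median over the 8 genes was 53.0%, 43.7% and 51.0% in food-restricted replicates 1 to 3. Food-restricted replicate 3 was the highest of its diet for 5 of the 8 genes, replicate 1 for the other 3 and replicate 2 for none. The lowest library was replicate 1 for 4 genes, Slc5a2, Slc34a1, Slc15a2 and Slc22a8, and replicate 2 for the other 4. Over the 6 libraries, Pearson's r of each gene's log2 value with the mean of the other 7 was between 0.893 and 0.985 for 7 genes and 0.253 for Slc22a8. The diets form separate clusters, so these coefficients mostly describe the step between diets.

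Among genes with a mean normalized count of at least 100, the 8 whose profile was most like the mean of the 8 transport genes were Pck1, Polr2b, Cubn, 5830417I10Rik, Timm21, Scd2, Psmd7 and Uty. Pearson's r ran from 0.998 to 0.991 over the 6 libraries, out of 10056 genes ranked, and is given as a description of libraries that split by diet. Pck1, the gluconeogenic enzyme that proximal tubule cells make, averaged 66.8 ± 11.6 normalized counts in the food-restricted libraries and 169 ± 10.3 in the control libraries (SD, n = 3 each). Cubn encodes cubilin, an endocytic receptor of the same cells. Uty is a Y-linked gene.

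Of the 51 other proximal tubule transport genes measured, 9 fell and none rose in the food-restricted cells. The share called lower was 17.6%, against 2.50% of all genes. The median log2 fold change of the 51 was -0.51, and 40 were negative, against 50.45% of all genes. Of the 51, 19 lay below the controls without overlap and none above, against 10.2% and 9.48% of all genes. Under 10 normalized counts in every library were found for 6. No gene of the list was higher at an unadjusted p under 0.05 and 19 were lower, and limma-voom called 7 lower and none higher. The list is the broader set to which the 8 genes belong and was written with earlier results of these data known. Calls did not gather in the better expressed genes alone, since 7 of the 33 with a mean of at least 30 normalized counts and 2 of the 18 below that were lower. The authors' deposited table calls 5 of the 51 lower and none higher. The count was 5 without food-restricted replicate 1, 5 without food-restricted replicate 3 and 4 without control replicate 1.

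The transport genes that fell work on both faces of the cell. Slc4a4, which exports bicarbonate on the blood side, had 275, 231.5 and 243 normalized counts in the food-restricted libraries and 404, 340.5 and 382 in the control libraries, with a log2 fold change of -0.59 (limma adjusted p = 7.22e-05). Abcc2, an efflux pump of the brush border, had 21.1, 35.6 and 26.2 against 70.1, 64.3 and 77.2, with a log2 fold change of -1.35 (adjusted p = 0.000213). Slc7a8, an amino acid exchanger of the blood side, had 73.9, 80.6 and 78.7 against 127, 142 and 141.5, with a log2 fold change of -0.81 (adjusted p = 0.000627). These 3 passed the limma test under every alternative tried. Each of the next 5 lost its call when at least 1 library was left out.

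Slc2a2 (GLUT2), the glucose exit carrier, had a log2 fold change of -0.91 (limma adjusted p = 0.00397), with 0.0818 without food-restricted replicate 3 and 0.0628 without control replicate 1. Slc47a1, which extrudes organic cations into the lumen, had -0.85 (adjusted p = 0.00853), with 0.0597 without food-restricted replicate 3 and 0.105 without control replicate 2. Slc22a12, the urate exchanger, had -0.82 (adjusted p = 0.0275) and kept the call only when food-restricted replicate 2 was the library left out, with 0.0729 to 0.117 without any other. The log2 fold change of Slc5a1 (SGLT1), the second glucose carrier of the lumen, was -0.91 (adjusted p = 0.031), and its call was kept only when control replicate 3 was left out, with 0.0634 to 0.197 without any other. Slc7a9, the light chain that Slc3a1 carries to the membrane, had 8.80, 3.95 and 22.3 normalized counts against 23.05, 28.9 and 27.9 and a log2 fold change of -1.40 (adjusted p = 0.0433). Its call was kept only when food-restricted replicate 3 was left out, with 0.0761 to 0.375 without any other, and the fold change was -0.86 without food-restricted replicate 2. It was also not called by limma-voom (0.0833) or among genes with at least 1 CPM in 3 libraries (0.0583).

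**Figure D4:**
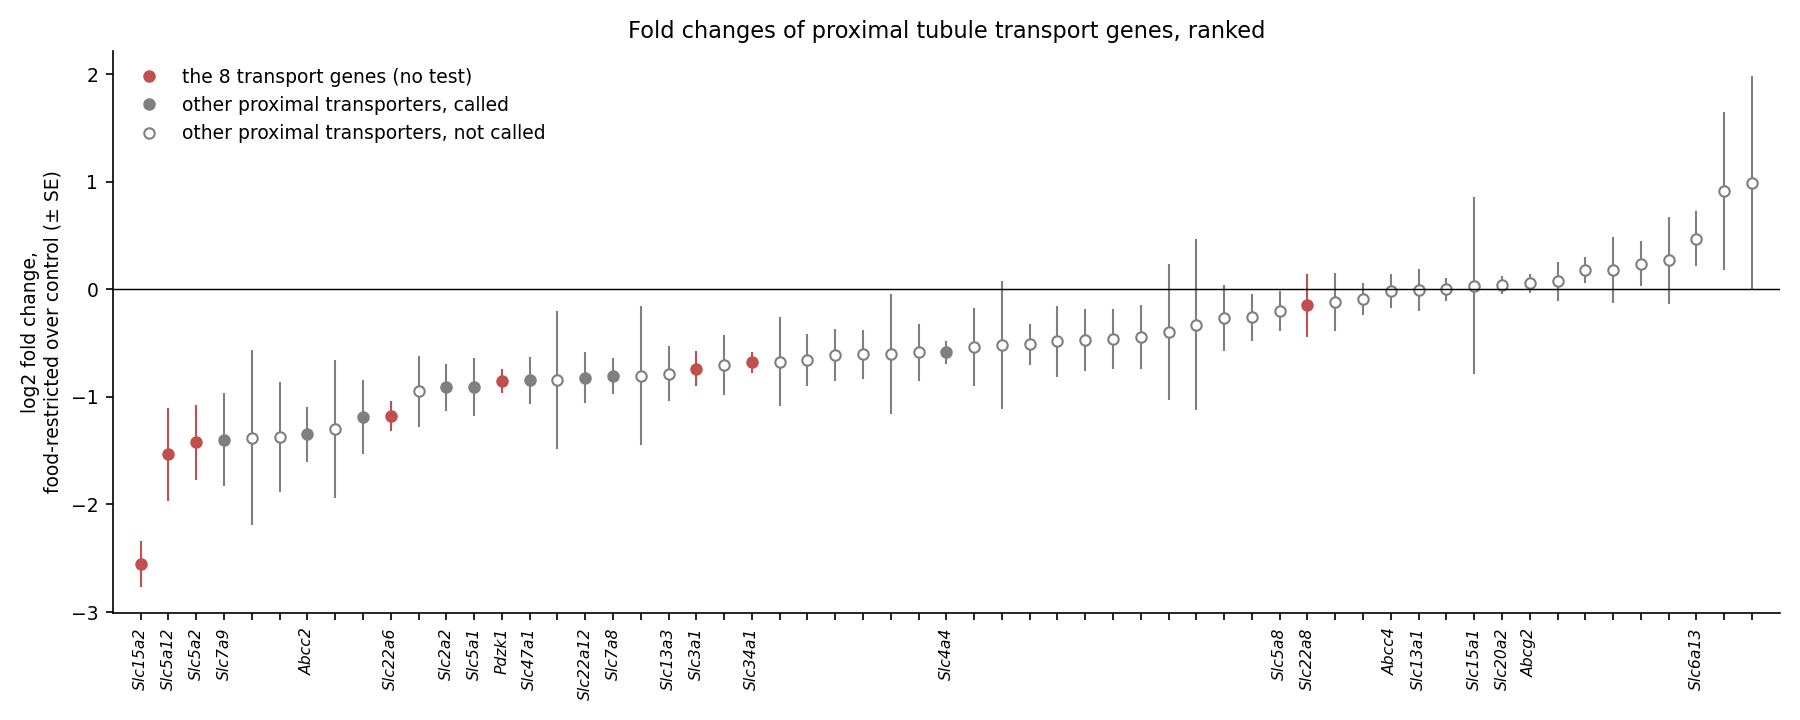
Log2 fold change, food-restricted over control, of the 8 transport genes (red, not tested) and of 51 other proximal transporters, ranked, with SE bars and with names under the genes described in the text. Filled grey points passed the limma test over all genes and open points did not. The filled points all lie below 0, and Slc15a2 is lowest at -2.56.

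Among the 42 carriers that did not pass the test, fold changes lay on both sides of 0, more of them below it. The lactate carrier Slc5a8 had a log2 fold change of -0.20, the sulfate carrier Slc13a1 -0.01, and the efflux pumps Abcc4 -0.02 and Abcg2 0.06, each with overlapping diets. Slc6a13, a GABA carrier, had 56.3, 60.9 and 41.3 normalized counts against 42.4, 31.1 and 39.7 and a log2 fold change of 0.47 (limma adjusted p = 0.379). Slc13a3, which carries dicarboxylates into the cell for exchange by Slc22a6, had 24.65, 42.7 and 36.7 against 59.9, 65.3 and 52.5, all below the controls, and a log2 fold change of -0.79 (limma adjusted p = 0.0592). These genes were named after their values were seen, as were Slc20a2, Slc15a4, Slc3a2 and Slc7a9 above. So were Ezr, Slc9a3r1 and the other scaffold and structural genes of the brush border named below.

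Of 22 genes for brush border structure, scaffolds and membrane proteins such as peptidases, 9 fell and none rose. Their median log2 fold change was -0.52, and 0 of 22 were higher at an unadjusted p under 0.05. The share called lower was 40.9%, against 2.50% of all genes. Tmem27 (collectrin), which brings amino acid carriers to the membrane, had 35.2, 41.1 and 53.8 normalized counts in the food-restricted libraries and 104, 105 and 133 in the control libraries, with a log2 fold change of -1.39 (limma adjusted p = 1.85e-06). Pdzk1ip1, a small membrane protein that binds Pdzk1, had 45.8, 31.6 and 27.5 against 71.0, 86.7 and 71.8 and a log2 fold change of -1.13 (adjusted p = 0.000953). Peptidases of the brush border made up most of the rest: Dpep1 had a log2 fold change of -1.56, Mep1a -0.79, Dpp4 -0.72, Ggt1 -0.65, Enpep -0.55 and Anpep -0.49. Ezr, the linker of membrane proteins to actin, fell by 0.20 on the log2 scale, and Slc9a3r1, another PDZ scaffold that binds Slc34a1, had -0.13 (adjusted p = 0.418). The PDZ scaffolds Slc9a3r2 and Pdzd3 had 0.35 and -0.27. Among structural genes, Vil1 had -0.59, Cdhr2 -0.58, Ush1c -0.21, Myo7b -0.09 and Cdhr5 0.09. None of these scaffold and structural genes but Ezr was called, and each of the others had overlapping diets. Enpep lost its call without food-restricted replicate 3 (adjusted p = 0.0557) and without control replicate 1 (0.0526), and Ezr without control replicates 1 (0.123) and 2 (0.0597).

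Some endocytic receptor genes and some enzymes and secreted products of the proximal tubule also fell. Lrp2 had 2248, 2280 and 2248 normalized counts in the food-restricted libraries and 3896, 4188 and 4050 in the control libraries, with a log2 fold change of -0.84 (limma adjusted p = 6.36e-23). Its partner Cubn had a log2 fold change of -0.76 (adjusted p = 4.12e-08). Clcn5, the endosomal chloride exchanger, had -0.24 (adjusted p = 0.0206) and was not called without food-restricted replicates 1 (0.0731) and 3 (0.0861) or control replicates 2 (0.0534) and 3 (0.193). Of 5 such genes these 3 fell (60.0%, against 2.50% of all genes), and Dab2 and Amn did not pass. Of 21 enzymes and secreted proteins measured, 11 fell (52.4%, against 2.50% of all genes) and none rose, with a median of -0.80 and 1 of 21 higher at an unadjusted p under 0.05. Kap, a secreted kidney protein under androgen control in mice, had 8.80, 24.5 and 20.98 against 114, 83.5 and 108 normalized counts and a log2 fold change of -2.53 (adjusted p = 5.13e-10). The antioxidant enzyme Gpx3 had -1.14, the arginine-cycle enzyme Ass1 -1.29, the creatine-synthesis enzyme Gatm -1.05 and Pck1 -1.33.

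Among 14 regulators and early markers of proximal tubule fate, 1 fell and 1 rose (7.14% each, against 2.50% and 2.24% of all genes), with a median log2 fold change of 0.12. At an unadjusted p under 0.05, 2 were lower and 5 higher. Without overlap, 2 lay below the controls and 6 above, against 10.2% and 9.48% of all genes. Hnf4a had 106, 97.2 and 68.9 normalized counts in the food-restricted libraries and 143, 155 and 129 in the control libraries, with a log2 fold change of -0.67 (limma adjusted p = 0.00712). It was not called without food-restricted replicate 3 (0.166), control replicate 1 (0.0615) or control replicate 2 (0.0722). Maf had 609, 592 and 564 against 462, 473 and 465 and a log2 fold change of 0.33 (adjusted p = 0.00638).

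**Figure D5:**
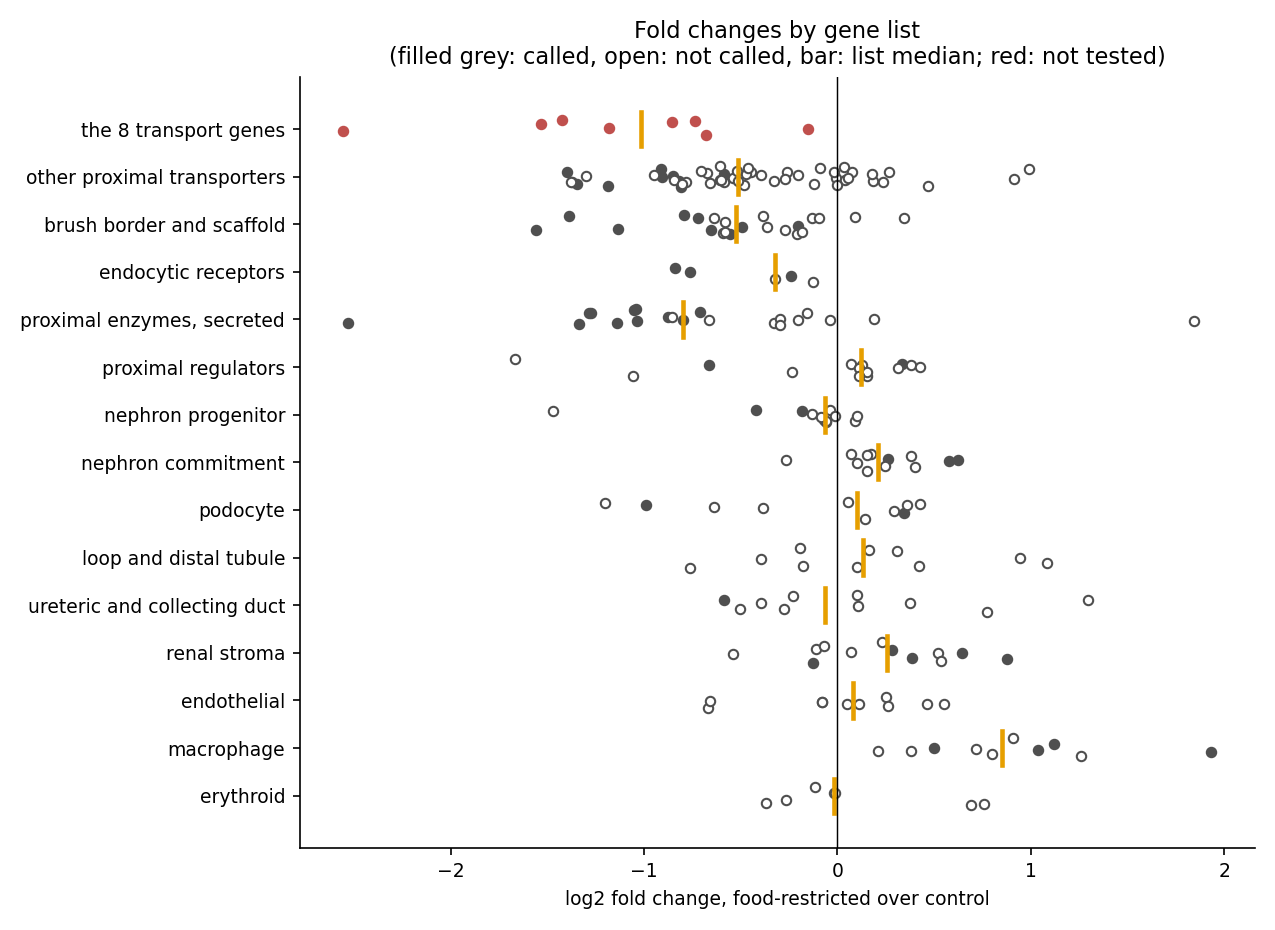
Log2 fold change, food-restricted over control, of the 8 transport genes and of the genes of 14 lists, with 1 point a gene and the list median as a bar. Filled grey points passed the limma test over all genes. The medians of the other transporters, the brush border genes and the enzymes lie at -0.51, -0.52 and -0.80, and that of the progenitor genes at -0.06.

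Markers of other cells gave the setting of these values. Of 12 nephron progenitor genes, 2 fell (16.7%, against 2.50% of all genes), Meox1 by 0.42 and Itga8 by 0.19 on the log2 scale. The summed level of the 12 was 34990 to 36480 normalized counts in food-restricted and 36750 to 37490 in control libraries. Of 12 nephron commitment genes 3 rose (25.0%, against 2.24% of all genes), Lef1 by 0.63, Lhx1 by 0.58 and Cdh4 by 0.26 on the log2 scale. Of the 12, 9 lay above the controls without overlap, against 9.48% of all genes. The sum of the 12 was 10510 to 11160 against 9421 to 9801. Of 10 macrophage genes 4 rose (40.0%, against 2.24% of all genes), Csf1r, Mrc1, Cd68 and Adgre1, with a sum of 451 to 486 against 267 to 294. Csf1r lost its call without food-restricted replicate 2 (limma adjusted p = 0.0582) and control replicate 1 (0.0526), Cd68 without food-restricted replicate 1 (0.091) and control replicates 1 (0.0518) and 2 (0.0677), and Adgre1 without any library but control replicate 1 (0.0576 to 0.123) and by limma-voom (0.0606). Limma called 0 of 10 genes of the loop and distal tubule, with 0 at an unadjusted p under 0.05 and sums of 364 to 386 against 313.5 to 368 normalized counts. Aqp2, which defines the collecting duct, was near 0, with 5.28, 4.74 and 1.31 normalized counts in food-restricted and 4.61, 0 and 0 in control libraries. Endothelial Pecam1 had 64.0 to 77.5 against 45.0 to 72.9. The part of any of these in the values of the transport genes was not tested.

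Among the remaining lists, genes of the stroma, podocytes and ureteric tree were called. Of 12 stromal genes 4 rose (33.3%, against 2.24% of all genes), Col3a1, Pdgfra, Col1a2 and Col1a1. Aldh1a2 fell (8.33% of the list, against 2.50% of all genes), and the sum of the 12 was 9603 to 9715 against 9492 to 9659. Pdgfra lost its call without food-restricted replicate 3 (limma adjusted p = 0.0836) and control replicate 1 (0.0694), Col1a1 without food-restricted replicates 2 (0.0718) and 3 (0.0596), Col1a2 without food-restricted replicate 3 (0.0543) and control replicate 3 (0.219), and Aldh1a2 with trimmed mean scaling (0.0545) and without any library but food-restricted replicate 1 (0.0647 to 0.167). Of 10 podocyte genes 1 rose, Foxc2, against 2.24% of all genes, and 1 fell, Podxl, against 2.50% of all genes. The sum of the 10 was 1445 to 1676 against 1399 to 1405. Foxc2 lost its call without food-restricted replicates 2 (0.152) and 3 (0.0754) and control replicate 1 (0.0738), and Podxl without food-restricted replicates 1 (0.0565) and 3 (0.133) and control replicates 2 (0.184) and 3 (0.0722). Of 10 ureteric and collecting duct genes 1 fell, against 2.50% of all genes, which was Hoxb7, by 0.59 on the log2 scale. The sum of these 10 was 264 to 329 against 353 to 362. None of 10 endothelial genes (sum 211 to 262 against 223 to 256) and none of 7 erythroid genes (sum 356 to 407 against 378 to 428) was called by limma. At an unadjusted p under 0.05, 1 endothelial gene was lower, 0 were higher and 0 erythroid genes differed.

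Sex-linked transcripts also differed with diet, and the labels name no sex for any library. Xist, which is made from the inactive X chromosome, had 27070, 26740 and 26000 normalized counts in the food-restricted libraries and 16740, 17820 and 18390 in the control libraries, with a log2 fold change of 0.59 (limma adjusted p = 5.92e-25). Ddx3y, on the Y chromosome, had 361, 326 and 320 against 749.7, 691 and 807 and a log2 fold change of -1.16. The Y-linked genes Uty, Kdm5d and Eif2s3y had -0.91, -0.83 and -0.85. The share of male cells in the libraries and the diet cannot be told apart in the values of the transport genes.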

How the data were processed

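Libraries were made with a kit for stranded total RNA at low input, per the labels' protocols. The submitters' processing notes name build GRCm38, TopHat2 2.1.1, HTSeq 0.6.0, the authors' DESeq2 1.22.1, cutadapt 1.18 and bcl2fastq 2.18.0.12, without settings. The authors deposited read counts for 45659 of 52386 genes and, for the 25157 genes with a summed count of at least 10, counts divided by a size factor per library. Their comparison holds log2 fold changes and a test statistic, a score per gene, in the same deposited table.

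The normalized counts were tested as log2(value + 1) with limma 3.58.1 (R 4.3.3) and a mean-variance trend, with diet as the only term and a Benjamini-Hochberg threshold of 0.05. The planned count model was not run, and this test was its set replacement, because the deposited count columns mark some genes as missing. The 25157 genes tested all hold whole read counts, and limma-voom was run on those. Fold changes on this scale understate the change of weak genes. Levels per kilobase use merged GENCODE M21 exons. The 8 genes and all lists were chosen with earlier results of these data known, and genes of a list were named by a rule: called genes, up to 8 a list by smallest p. Some genes that the rule names are not reported here. Alternatives were 2 pseudocounts, another scaling, an expression filter, limma-voom, a replicate block and leaving out each library.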

Additional observations from a re-analysis of the deposited data

How the results depend on the processing

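Of the 8 transport genes, 7 kept a negative log2 fold change in the principal fit and all 12 alternatives, from -2.76 to -2.31 for Slc15a2, -1.73 to -1.19 for Slc5a12, -1.65 to -1.21 for Slc5a2, -1.24 to -1.15 for Slc22a6, -0.96 to -0.78 for Pdzk1, -0.87 to -0.54 for Slc3a1 and -0.71 to -0.63 for Slc34a1. Slc22a8 ran from -0.30 to 0.08. Of 49 other named genes that were called, 30 kept the call under every alternative, and none of their 588 values changed sign. With 1 library left out, the genes called numbered 564 to 1357 against 1193, those lower 324 to 752, those higher 240 to 605 and the other proximal transporters lower 4 to 7. Leaving a library out tests fewer samples. The median of all genes moved by less than 0.1 (log2) under every scaling.

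The replicate numbers are shared between diets, but libraries of the same number did not deviate together (correlations of -0.0867, 0.0138 and -0.0361 over 11878 genes), and none correlated best with its own number. A fit with the replicate block called 980 genes, and 8 other transporters lower; Slc7a9 (adjusted p = 0.0506) and Aldh1a2 (0.101) lost their calls under it. The planned count models edgeR and DESeq2 were not run. Depth limits Slc5a2, Slc5a12, Slc15a2 and Slc22a8, each with a food-restricted library under 15 reads.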
